A study of Mus musculus with 11 samples.

Results

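The expression difference between 2 doses of Curaxin-137 was examined for genes that move the same way in liver and spleen. The tested arrays were the 4 at 0.2 mg/ml, 2 from liver (replicates 73 and 85) and 2 from spleen (replicates 62 and 62_86). They were set against the 4 at 0.1 mg/ml, 2 from liver (replicates 43 and 55) and 2 from spleen (replicates 56 and 32). These 8 arrays, of 11 in the series, were chosen by the dose and organ in their labels. The remaining 3 arrays, 2 livers (replicates 1 and 25) and 1 spleen (replicate 8), came from mice on plain water and are used below only to place the doses. Every group, water included, was of Her2/neu transgenic mice, a model of breast cancer, and the labels name no promoter for the transgene. The drug was given in the drinking water for 10 weeks, from 4 to 14 weeks of age. The design names 2 mice per treatment group, the organs share no replicate number, and the labels do not say whether a liver and a spleen came from 1 mouse. Both spleens at 0.2 mg/ml carry the number 62 in their labels.

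Curaxins are small molecules that bind DNA without cutting it, trap the histone chaperone FACT on chromatin, and are known to activate p53 and dampen NF-kB. Interferons, the cytokines that answer viruses and foreign nucleic acid, act through STAT and IRF transcription factors. Those factors switch on antiviral enzymes, GTPases that attack the vacuoles of intracellular microbes, and the machinery that loads peptides on MHC class I. Liver and spleen both contain macrophages, which respond strongly to interferon, among very different majority cells.

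Levels are log2 intensities after background correction and quantile normalization within each organ, so levels are not compared between organs. Of 45281 probes, 14557 were detected on at least 2 treated arrays in each organ, and they represent 10512 features, 8559 of them with a gene symbol. Mean raw signal per array ran from 94.7 to 219 and 35.8% to 43.2% of probes were detected. Both ends of that signal range were spleens at 0.1 mg/ml, replicate 32 at 94.7 and replicate 56 at 219. Over all features the treated replicate pairs correlated at 0.991 and 0.989 in liver and at 0.988 in spleen at 0.2 mg/ml, but at 0.944 in spleen at 0.1 mg/ml. That last pair was less alike than spleens of different doses, at 0.956 to 0.96. The number of arrays, 2 per organ and dose, limits the precision, and nothing says whether replicates were prepared separately, so the p-values cover the spread of these arrays, which may be technical. Hepatocyte genes were where the liver label puts them, with Apoa1, the main protein of high-density lipoprotein, at 13.39 and 13.40 in livers at 0.2 mg/ml and 13.57 and 13.21 at 0.1 mg/ml. In the spleens 8 of 17 hepatocyte markers, Alb among them, were undetected on all treated arrays, and in the livers 8 of 12 B cell markers, Cd79b and Cd22 among them, were undetected.

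The first question is which genes differed between the doses in both organs together. Genes induced by interferon stood at the top of the genes that read higher at 0.2 mg/ml, and 1 of them, Ifit3, passed the test. The GTPase genes Gvin1, Ifi47 and Gbp2, the antigen presentation genes H2-K1, Psmb10 and Tap2, and the chemokine gene Cxcl9 had each array at 0.2 mg/ml above each array at 0.1 mg/ml of the same organ. The genes that read lower in both organs included Tubb4b, a tubulin, Fam20c, a kinase of secreted proteins, and Psat1, an enzyme of serine synthesis. None of them passed.

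In the fit with tissue as a block (limma, Benjamini-Hochberg adjustment over 10512 features), 1 feature rose (0.00951%) and 0 fell; the next smallest adjusted p was 0.0711. Before adjustment, p was under 0.05 for 775 features with the higher level at 0.2 mg/ml (7.37%) and for 720 with the lower (6.85%). This fit counts the 8 arrays as independent. If livers and spleens came from the same mice, the call and both shares rest on fewer mice than arrays. Every array at 0.2 mg/ml lay above every array at 0.1 mg/ml in both organs for 778 features (7.4%), and below for 699 (6.65%). With scaling to the 75th percentile these counts were 314 and 660, and the median spleen difference of all features moved to -0.14, against -0.01 with quantile normalization. The doses separated in opposite directions in 670 features (6.37%), and the difference was above 0 in both organs in 28.7% and below 0 in both in 28.3%. Across features, the liver and spleen differences correlated weakly (Pearson r 0.148, Spearman rho 0.189, n = 10512). These are different libraries in each organ, but features are not independent replicates, and 56.9% had the same sign in both organs.

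**Figure D1:**
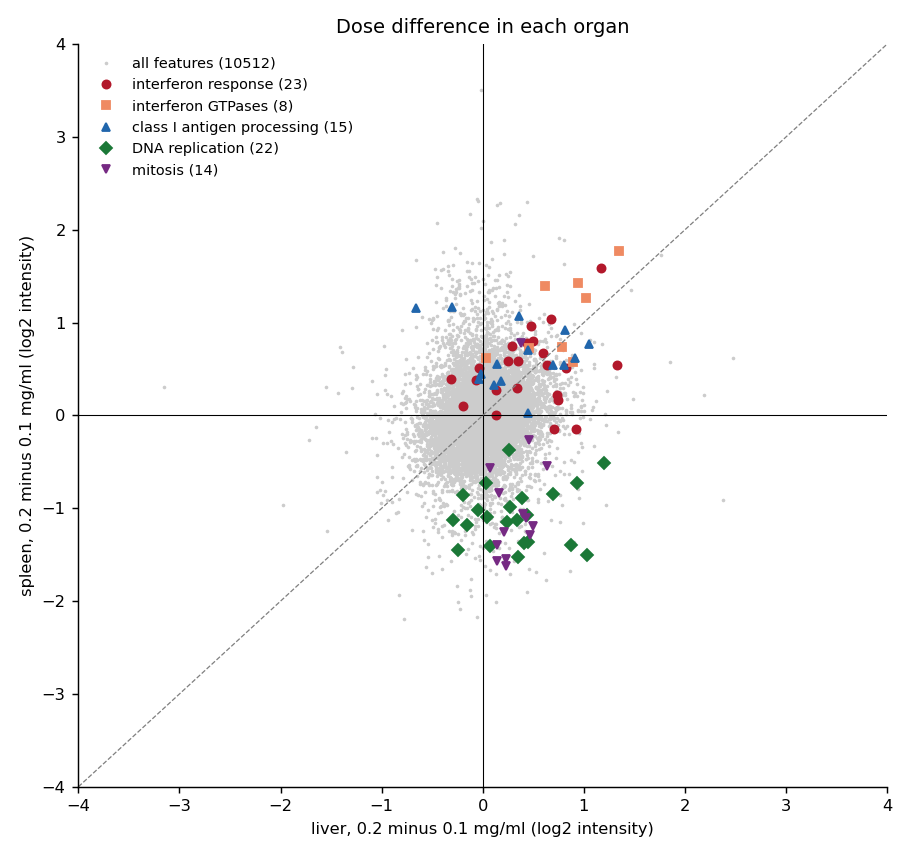
Difference in log2 intensity, 0.2 minus 0.1 mg/ml, in liver (x axis) and spleen (y axis), for 10512 features in grey and for the members of 5 gene lists in colour; the dashed line marks equal differences. All 8 interferon GTPases lie above 0 in both organs, while 17 of 22 DNA replication genes have opposite signs in the organs.

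Ifit3 encodes an interferon-induced protein that helps block translation of viral RNA. It read 6.48 and 6.28 in livers at 0.2 mg/ml, against 5.08 and 5.34 in livers at 0.1 mg/ml. In spleen it read 8.02 and 8.09 at 0.2 mg/ml, against 6.42 and 6.52 at 0.1 mg/ml. The doses did not overlap in either organ. Ifit3 rose by 1.38 on the log2 scale in the blocked fit (SE 0.14, limma adjusted p = 0.0200), 1.17 in liver and 1.58 in spleen, and its second probe had the same sign. The water livers read 5.48 and 6.01, between the doses, and the water spleen 5.91, below both. The adjusted p ran from 0.00844 to 0.234 over the alternatives. The call ended in 8 of 21, among them when 1 of 4 arrays was left out (replicate 43 or 85 of liver, 62 or 62_86 of spleen; adjusted p 0.164, 0.0532, 0.234 and 0.229), and the difference ran from 1.01 to 1.47. The call also ended when the spleens numbered 62, which may be from 1 mouse, were averaged and counted as 1 (adjusted p = 0.206).

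The promoter windows of Ifit3 and of other leading genes are shown because interferon-stimulated genes are bound by IRF and STAT factors at a motif called the interferon-stimulated response element, searched here on both strands as GAAA, any 2 bases, GAAA. Each window runs from 250 bases before to 50 bases after the annotated start, 5′ to 3′ along the gene, and capitals mark the matches (RefSeq sequence, build GRCm38.p6). The windows lie at chr19:34583279-34583578, plus strand (Ifit3), chr3:142620413-142620712, plus strand (Gbp2), chr8:46739495-46739794, plus strand (Irf2), and chr10:62507708-62508007, minus strand (Srgn, 1 of 2 windows of the gene).
Ifit3: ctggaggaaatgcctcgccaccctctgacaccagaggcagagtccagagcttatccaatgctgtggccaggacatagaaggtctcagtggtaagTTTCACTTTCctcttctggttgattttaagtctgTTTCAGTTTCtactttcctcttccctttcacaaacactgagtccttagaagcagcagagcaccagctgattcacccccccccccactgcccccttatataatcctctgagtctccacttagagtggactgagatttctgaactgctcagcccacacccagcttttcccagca
Gbp2: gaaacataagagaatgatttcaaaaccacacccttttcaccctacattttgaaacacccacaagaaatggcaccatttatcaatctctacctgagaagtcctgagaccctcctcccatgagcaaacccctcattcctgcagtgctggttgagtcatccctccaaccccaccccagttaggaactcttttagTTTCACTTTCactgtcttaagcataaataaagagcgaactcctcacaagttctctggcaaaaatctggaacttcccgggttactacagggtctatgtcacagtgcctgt
Irf2: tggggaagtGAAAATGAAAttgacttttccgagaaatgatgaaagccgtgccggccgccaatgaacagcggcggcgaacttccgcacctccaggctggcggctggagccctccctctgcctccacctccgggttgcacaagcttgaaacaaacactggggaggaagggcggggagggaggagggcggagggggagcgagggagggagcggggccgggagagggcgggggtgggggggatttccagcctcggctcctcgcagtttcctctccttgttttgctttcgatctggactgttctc
Srgn: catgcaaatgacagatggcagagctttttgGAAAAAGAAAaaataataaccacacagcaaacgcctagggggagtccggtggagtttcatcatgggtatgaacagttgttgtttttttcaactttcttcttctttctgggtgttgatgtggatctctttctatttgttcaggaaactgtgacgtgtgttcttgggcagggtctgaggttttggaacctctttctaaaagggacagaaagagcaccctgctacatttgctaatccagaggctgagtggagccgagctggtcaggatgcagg
Ifit3 held 2 matches, beginning at positions -156 and -122 from the start, Gbp2 1 at -59, Irf2 1 at -241 and Srgn 1 at -220. Among the 12 higher genes described here, 10 had a window and these 4 held a match (40%), against 259 of 7006 tested genes with a window (3.7%) and 3.44% of all 32851 windows of the same length. Of the 12 lower genes, 0 of 12 held one. Among the GTPases 6 of 7 did (85.7%), among the interferon response genes 7 of 15 (46.7%) and among the class I genes 4 of 13 (30.8%). None of these 4 class I genes (B2m, Erap1, H2-T23, Psme1) had a limma unadjusted p under 0.05 for dose. Of the 7 interferon response genes, Ifit3, Bst2 and Eif2ak2 did, but not Isg15, Rsad2, Ddx58 or Stat2. Of the 6 GTPases, Gbp2, Gbp3, Igtp and Irgm2 did, but not Gbp7 or Irgm1. Whether a match goes with the dose difference was not tested. The STAT motif TTCNNNGAA was in 1 of the 10 higher genes (10%), in 3 of 7 GTPases (42.9%), in 4 of 15 interferon response genes (26.7%), in 1 of 13 class I genes (7.69%) and in 8.34% of tested genes. A match describes the letters of a window, and binding was not measured.

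The GTPases include the guanylate-binding proteins and the immunity-related GTPases, which coat and break microbe-containing vacuoles. Of 12 listed, 8 were tested, all 8 read higher in both organs, and 6 had an unadjusted p under 0.05, against 7.37% of all features; 0 passed after adjustment. Their median difference was 0.88 (0.84 in liver, 1.00 in spleen), beside 0.00 over all features. In 5 of the 8 the doses did not overlap in either organ, against 7.4% of all features: Gvin1, Ifi47, Gbp2, and, named for this count after their values were seen, Gbp3 and Irgm2.

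Gvin1, a very large interferon-inducible GTPase, read 5.89 and 6.76 in livers at 0.2 mg/ml, against 4.97 and 4.997 at 0.1 mg/ml. In spleen it read 10.05 and 9.79 at 0.2 mg/ml, against 8.26 and 8.04 at 0.1 mg/ml. Its difference was 1.56 (SE 0.20, adjusted p = 0.0711), and both organs showed it on every array. Gbp2 read 6.55 and 7.36 in liver and 10.18 and 10.40 in spleen at 0.2 mg/ml, against 6.18 and 5.84 in liver and 9.03 and 8.71 in spleen at 0.1 mg/ml. The difference was 1.18 (SE 0.20, adjusted p = 0.112), and the water arrays of both organs lay below both doses (5.74 and 5.86 in liver, 8.52 in spleen). Ifi47, an immunity-related GTPase, differed by 1.14 (SE 0.18, adjusted p = 0.0889), by 1.02 in liver and 1.26 in spleen. Probes of such families can bind near-identical relatives, which was not tested for Ifit3, Gvin1, the Gbp genes or H2-K1.

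The list of other interferon response genes had 23 of 32 members tested. Of these, 12 had an unadjusted p under 0.05 with the higher level at 0.2 mg/ml, against 7.37% of all features, and 0 with the lower; 1, Ifit3, passed. Differences were above 0 in both organs in 16 and opposite in 7, and the median was 0.47 (0.48 in liver, 0.51 in spleen). In 11 the doses did not overlap in either organ with the higher level at 0.2 mg/ml, against 7.4% of all features. Oasl2, which encodes a 2′-5′ oligoadenylate synthetase-like protein, read 5.48 and 5.52 in livers at 0.2 mg/ml, against 4.71 and 4.94 at 0.1 mg/ml. In spleen Oasl2 read 7.61 and 7.49 at 0.2 mg/ml, against 6.26 and 6.76 at 0.1 mg/ml. It differed by 0.86 (adjusted p = 0.112), and Oas2, an enzyme that makes the signal for RNA decay, by 0.65 (adjusted p = 0.149). Both had the water spleen below both doses, at 5.92 for Oasl2 and 4.51 for Oas2.

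MHC class I presents peptides, cut by the immunoproteasome and carried by the TAP transporter, to T cells. Of 16 genes in the list, 15 were tested, 8 had an unadjusted p under 0.05 with the higher level at 0.2 mg/ml and 0 with the lower, against 7.37% and 6.85% of all features, and 0 passed after adjustment. The median was 0.44 (0.36 in liver, 0.55 in spleen), with 11 above 0 in both organs and 4 opposite. Tap1, named here because it is among these 8, was undetected in both livers at 0.1 mg/ml. It passed the detection filter in liver only through the higher dose. H2-K1, a class I heavy chain, read 10.25 and 10.34 in livers at 0.2 mg/ml, against 9.57 and 9.40 at 0.1 mg/ml. In spleen it read 10.88 and 10.78 at 0.2 mg/ml, against 9.92 and 9.91 at 0.1 mg/ml. The difference was 0.86 (SE 0.12, adjusted p = 0.0813), though only 1 of 2 other probes of the gene had the same sign, and the water livers, at 9.04 and 10.67, spanned both doses.

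Psmb10 encodes a catalytic subunit of the immunoproteasome. Its levels at 0.2 mg/ml were 9.17 and 9.39 in liver and 10.55 and 10.42 in spleen, against 8.17 and 8.29 in liver and 9.69 and 9.73 in spleen at 0.1 mg/ml. The doses did not overlap, and the difference was 0.91 (SE 0.13, adjusted p = 0.0813). Tap2, a subunit of the peptide transporter, differed by 0.76 (adjusted p = 0.112); the water spleen, at 9.19, lay above both doses, which read 8.59 and 8.67 at 0.2 mg/ml and 8.17 and 7.85 at 0.1 mg/ml. Among other proteasome genes, of 18 tested, 0 had an unadjusted p under 0.05 with the higher level and 2, Psmb5 at -0.36 and Psmb3 at -0.28, with the lower (6.85% of all features), and the median was -0.16. MHC class II genes, whose 6 tested members all read higher in both organs, had a median of 0.21, with 0 at an unadjusted p under 0.05 and 0 that passed.

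Cxcl9 is an interferon-gamma-induced chemokine that draws T cells and natural killer cells. It had the largest difference among the 12 higher genes, 1.75 (SE 0.30, adjusted p = 0.112), with 7.02 and 8.64 in livers at 0.2 mg/ml, against 6.30 and 5.83 at 0.1 mg/ml. In spleen Cxcl9 read 8.99 and 9.18 at 0.2 mg/ml, against 7.61 and 7.10 at 0.1 mg/ml. The livers at 0.2 mg/ml were far apart, but both stood above the lower dose. Irf2, a transcription factor that binds the same motif as the activating IRFs, read 11.03 and 10.75 in liver and 10.65 and 10.60 in spleen at 0.2 mg/ml. At 0.1 mg/ml Irf2 read 9.93 and 10.09 in liver and 10.00 and 9.96 in spleen, a difference of 0.77 (SE 0.13, adjusted p = 0.112).

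Among the higher genes outside the interferon families, Srgn encodes serglycin, a proteoglycan of granules in blood-forming cells. It was undetected in both livers at 0.1 mg/ml and read at least 1.44-fold higher in livers at 0.2 mg/ml; where a dose was undetected on both arrays of an organ, each of its arrays entered at its own value or, if higher, at the dimmest detected probe. In spleen Srgn read 8.62 and 8.56 at 0.2 mg/ml, against 7.75 and 7.72 at 0.1 mg/ml. Tfpi, the inhibitor of the tissue factor clotting pathway, was likewise undetected in livers at 0.1 mg/ml (at least 1.33-fold higher at 0.2 mg/ml) and differed by 0.80 in spleen. Dab2ip, a Ras GTPase-activating protein, differed by 0.71 (adjusted p = 0.112), and 1 of its 2 other probes had the opposite sign. Over the 12 genes the fitted liver differences ran from 0.56 to 1.76 and the spleen differences from 0.60 to 1.77. The 0.56 is that of Tfpi, without its bound. Srgn and Tfpi passed the detection filter in liver only through the higher dose, and Srgn is also among the genes with a motif match above.

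**Figure D2:**
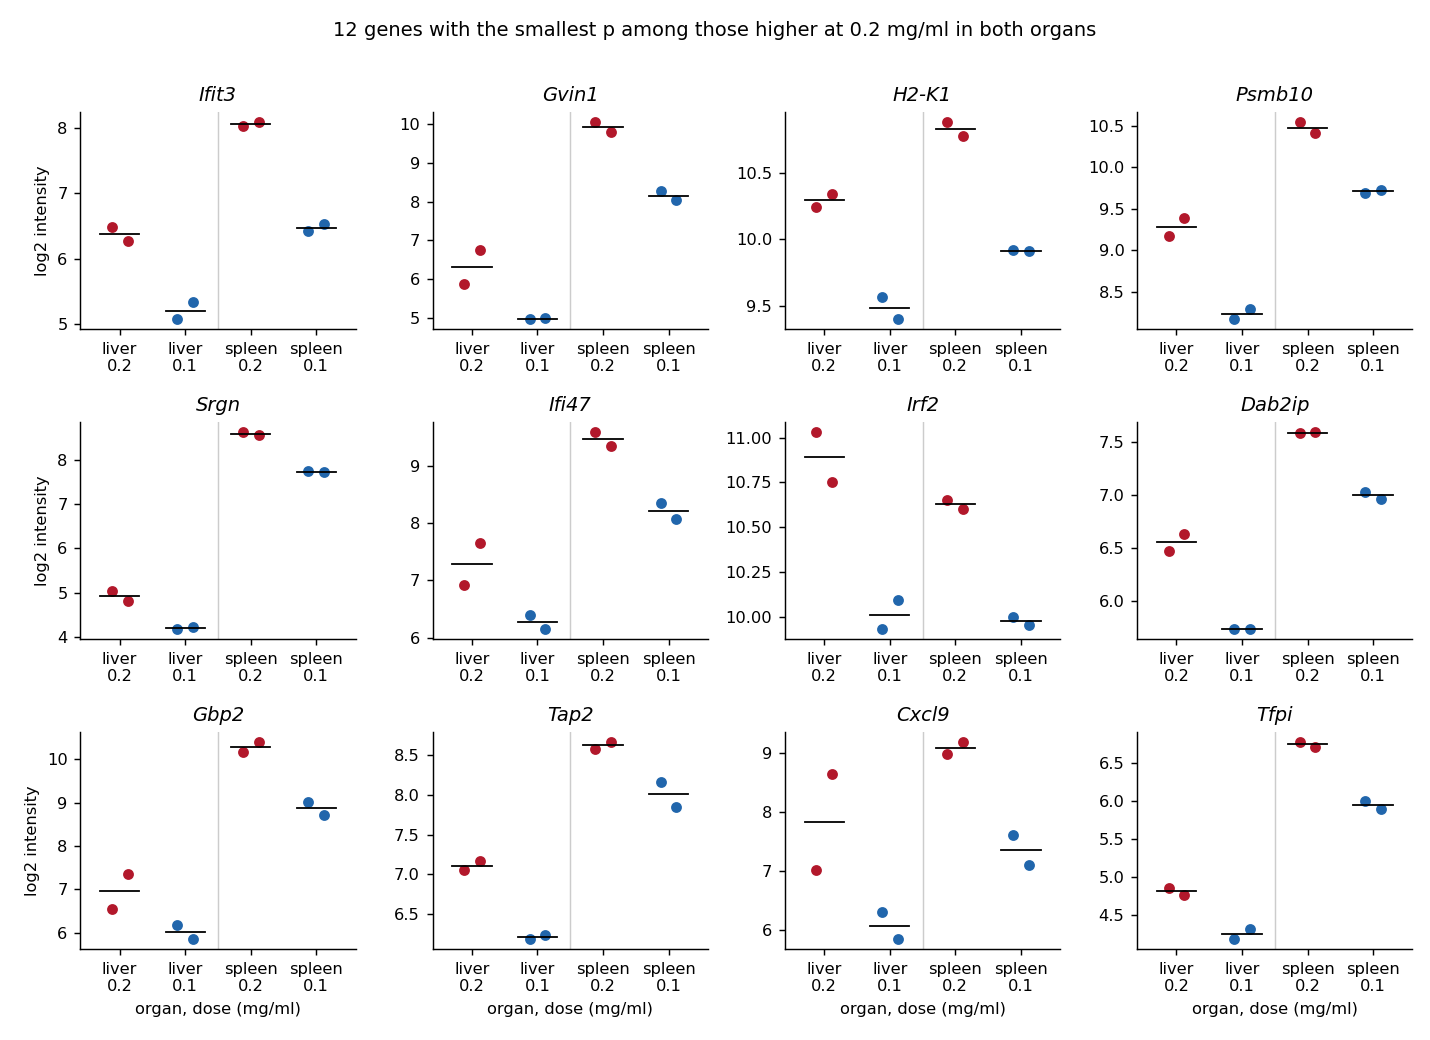
Log2 intensity on each array for the 12 genes with the smallest p among those higher at 0.2 than at 0.1 mg/ml in both organs; points are arrays (2 per organ and dose) and bars are group means, with the axis not starting at 0. In each gene both arrays at 0.2 mg/ml stand above both at 0.1 mg/ml in liver and in spleen, by the rule that chose them.

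Set beside water, the higher genes did not place the doses on 1 side. In liver the water mean lay between the doses in 10 of the 12 higher genes and below both in 2. The 2 water livers correlated at 0.97, below livers of different doses at 0.981 to 0.984, so their mean places the doses only roughly. In spleen the single water array lay between the doses in 6, below both in 4 and above both in 2.

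Marker sums of other cell types were compared beside the interferon genes, and they did not all run one way. Some lists share members, so their counts are not separate. C1qa, C1qb, C1qc and Fcna are in both the macrophage and the complement list. Bst2 is in the dendritic cell and interferon response lists, and Ccl5 in the natural killer and NF-kB lists. The summed level of 19 macrophage markers was 12975 to 14946 in spleens at 0.2 mg/ml, against 8588 to 12192 at 0.1 mg/ml, with 11 of 16 detected markers higher. In liver the sum was 6301 to 7830 at 0.2 mg/ml, against 5926 to 6303 at 0.1 mg/ml, with 14 of 17 higher. Of 15 macrophage markers tested in both organs, 6 had an unadjusted p under 0.05 with the higher level, against 7.37% of all features, and 0 passed, with a median of 0.36. Differences were above 0 in both organs in 8, below 0 in both in 1 and opposite in 6. In 3 the doses did not overlap in either organ with the higher level at 0.2 mg/ml, against 7.4% of all features. Adgre1, which encodes a surface receptor of mature macrophages, and Mpeg1, a pore-forming protein of phagocytes, were named after their values were seen and do not stand for the list. Adgre1 read 6.73 and 7.52 in liver and 8.68 and 8.57 in spleen at 0.2 mg/ml, against 5.98 and 6.15 in liver and 7.87 and 7.75 in spleen at 0.1 mg/ml. Mpeg1 differed by 1.18 in liver and 0.76 in spleen, and neither gene's doses overlapped.

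Natural killer markers summed to 2751 to 3148 in spleens at 0.2 mg/ml, against 1478 to 2190 at 0.1 mg/ml. In liver 11 of 14 of them, Ncr1 and Klrb1c included, were undetected on all treated arrays. Stromal markers summed to 7233 to 7402 in spleens at 0.2 mg/ml, against 4910 to 5167 at 0.1 mg/ml, while the livers overlapped (3162 to 3206 and 3087 to 3629). In spleen, dendritic cell markers read 3228 to 3632 at 0.2 mg/ml, against 1938 to 3026 at 0.1 mg/ml, and B cell markers overlapped, at 11782 to 11817 and 7862 to 14811. T cell marker sums were 5560 to 5572 in spleens at 0.2 mg/ml, against 3860 to 5472 at 0.1 mg/ml. In livers they overlapped, at 588 to 649 at 0.2 mg/ml and 646 to 809 at 0.1 mg/ml. Of 15 T cell markers, 7 were undetected on all treated livers. Of 6 detected on at least 2 treated livers, 5 read higher and 1 lower at 0.2 mg/ml. Monocyte marker sums were 3176 to 3207 in spleens at 0.2 mg/ml, against 2642 to 2877 at 0.1 mg/ml, with 3 detected markers higher and 3 lower. Of 14 detected neutrophil markers in spleen, 1 read higher and 13 lower at 0.2 mg/ml, while all 5 detected in liver read higher. The 2 spleens at 0.1 mg/ml were unlike. The median of the 5 markers tested in both organs was 8.85 on replicate 32 and 6.54 on replicate 56, against 6.72 and 6.50 in spleens at 0.2 mg/ml. The part of these cells in the interferon result was not tested, and in whole tissue fewer cells of a type and less RNA per cell cannot be told apart. Of 9 complement genes tested, 6 differed above 0 in both organs and 3 in opposite directions, with a median of 0.07 in liver and 0.51 in spleen. An unadjusted p under 0.05 with the higher level was found for 3, against 7.37% of all features: C2, a complement protease gene, at 0.61 (adjusted p = 0.139), C1qb at 0.50 and C1qc at 0.43. After adjustment 0 passed. Of the 3 with opposite directions, named for this count, Cfb was at -0.53 in liver and 0.21 in spleen, Fcna at -0.14 and 0.37, and C1qa at -0.005 and 0.63.

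**Figure D3:**
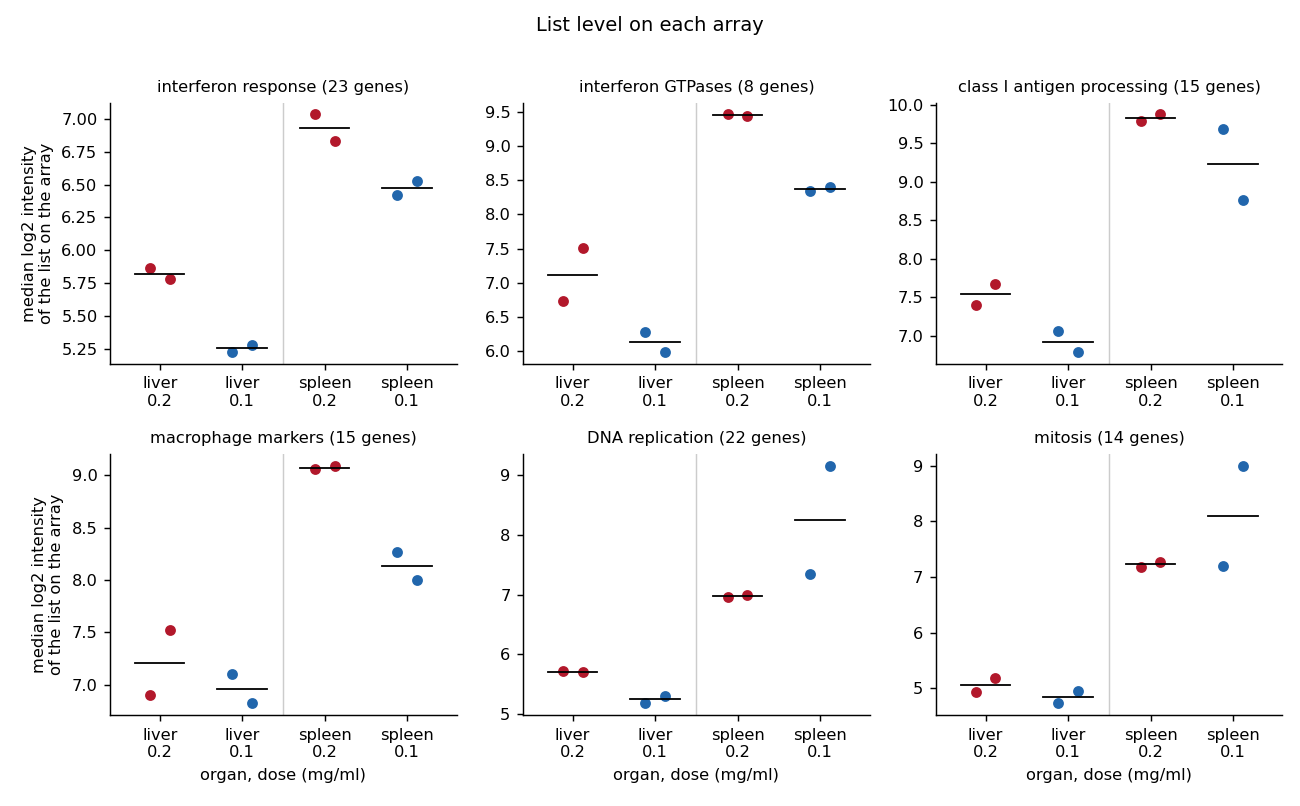
Median log2 intensity of a gene list on each array, for 3 interferon-related lists, macrophage markers and 2 cell division lists; points are arrays, bars group means, and axes do not start at 0. The interferon GTPases sit at 6.73 and 7.51 in livers and 9.46 and 9.44 in spleens at 0.2 mg/ml, against 6.28 and 5.99 in livers and 8.34 and 8.40 in spleens at 0.1 mg/ml, while 1 spleen at 0.1 mg/ml stands apart in both cell division lists.

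The lower genes were of mixed function. Tubb4b, a beta-tubulin of microtubules, read 8.28 and 8.21 in livers at 0.2 mg/ml, against 8.95 and 9.26 at 0.1 mg/ml. In spleen it read 9.44 and 9.25 at 0.2 mg/ml, against 10.25 and 10.55 at 0.1 mg/ml. This gave -0.96 (SE 0.14, adjusted p = 0.0813), with no overlap in either organ. Fam20c, the kinase that phosphorylates most secreted phosphoproteins, had the largest negative difference of the 12 lower genes, -1.47 (SE 0.23, adjusted p = 0.0889; -1.41 with spleen at its bound). Fam20c read 5.19 and 5.51 in livers at 0.2 mg/ml, against 7.62 and 7.03 at 0.1 mg/ml, and within liver alone it fell by 1.98 (4-group fit, limma adjusted p = 0.0408; 0.019% of features were called lower in liver). In spleens at 0.2 mg/ml it was undetected, at least 1.80-fold lower than at 0.1 mg/ml. Fam20c thus passed the detection filter in spleen only through the lower dose, where it read higher.

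None of the following lower genes passed after adjustment over both organs. Psme3, the nuclear activator of the proteasome, read 7.43 and 7.36 in liver and 8.94 and 9.01 in spleen at 0.2 mg/ml, against 7.98 and 8.32 in liver and 9.79 and 9.82 in spleen at 0.1 mg/ml, a difference of -0.79 (adjusted p = 0.0889). Usp7, the deubiquitinase that stabilises Mdm2 and p53, read 7.26 and 7.16 in liver and 8.52 and 8.44 in spleen at 0.2 mg/ml, against 7.81 and 7.82 in liver and 9.30 and 9.60 in spleen at 0.1 mg/ml, a difference of -0.79 (adjusted p = 0.112) with both other probes of the same sign. Nploc4, a cofactor of the p97 segregase, differed by -0.75, and Man1b1, a mannosidase that marks misfolded glycoproteins, by -0.87. Among metabolic genes, Cox19, an assembly factor of cytochrome oxidase, differed by -0.93 and Cpox, an enzyme of haem synthesis, by -0.94 in liver and at least 2.03-fold in spleen, where it was undetected at 0.2 mg/ml. Cpox passed the detection filter in spleen only through the lower dose. Ap2a1, an adaptor of clathrin coats, differed by -0.91 and Klhdc3, a substrate receptor of ubiquitin ligases, by -0.89.

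Ifrd2, known in rabbit reticulocytes to hold ribosomes inactive, read 5.25 and 5.54 in livers at 0.2 mg/ml, against 6.46 and 5.99 at 0.1 mg/ml. In spleen Ifrd2 read 5.49 and 5.14 at 0.2 mg/ml, against 6.97 and 7.52 at 0.1 mg/ml. It did not pass over both organs (-1.38, SE 0.25, adjusted p = 0.112) but fell by 1.93 within spleen (4-group fit, limma adjusted p = 0.0455; 0.00951% of features were called lower in spleen). The difference between organs gave an unadjusted p of 0.0136 for Ifrd2 and 0.0133 for Fam20c (adjusted p = 0.502 each). In spleen the water array was nearer the higher dose in 11 of the 12 lower genes, and in liver the water mean was nearer the lower dose in 11. That mean can cover unlike arrays: the water livers read 6.86 and 5.39 for Cpox, but 9.20 and 9.46 for Tubb4b.

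**Figure D4:**
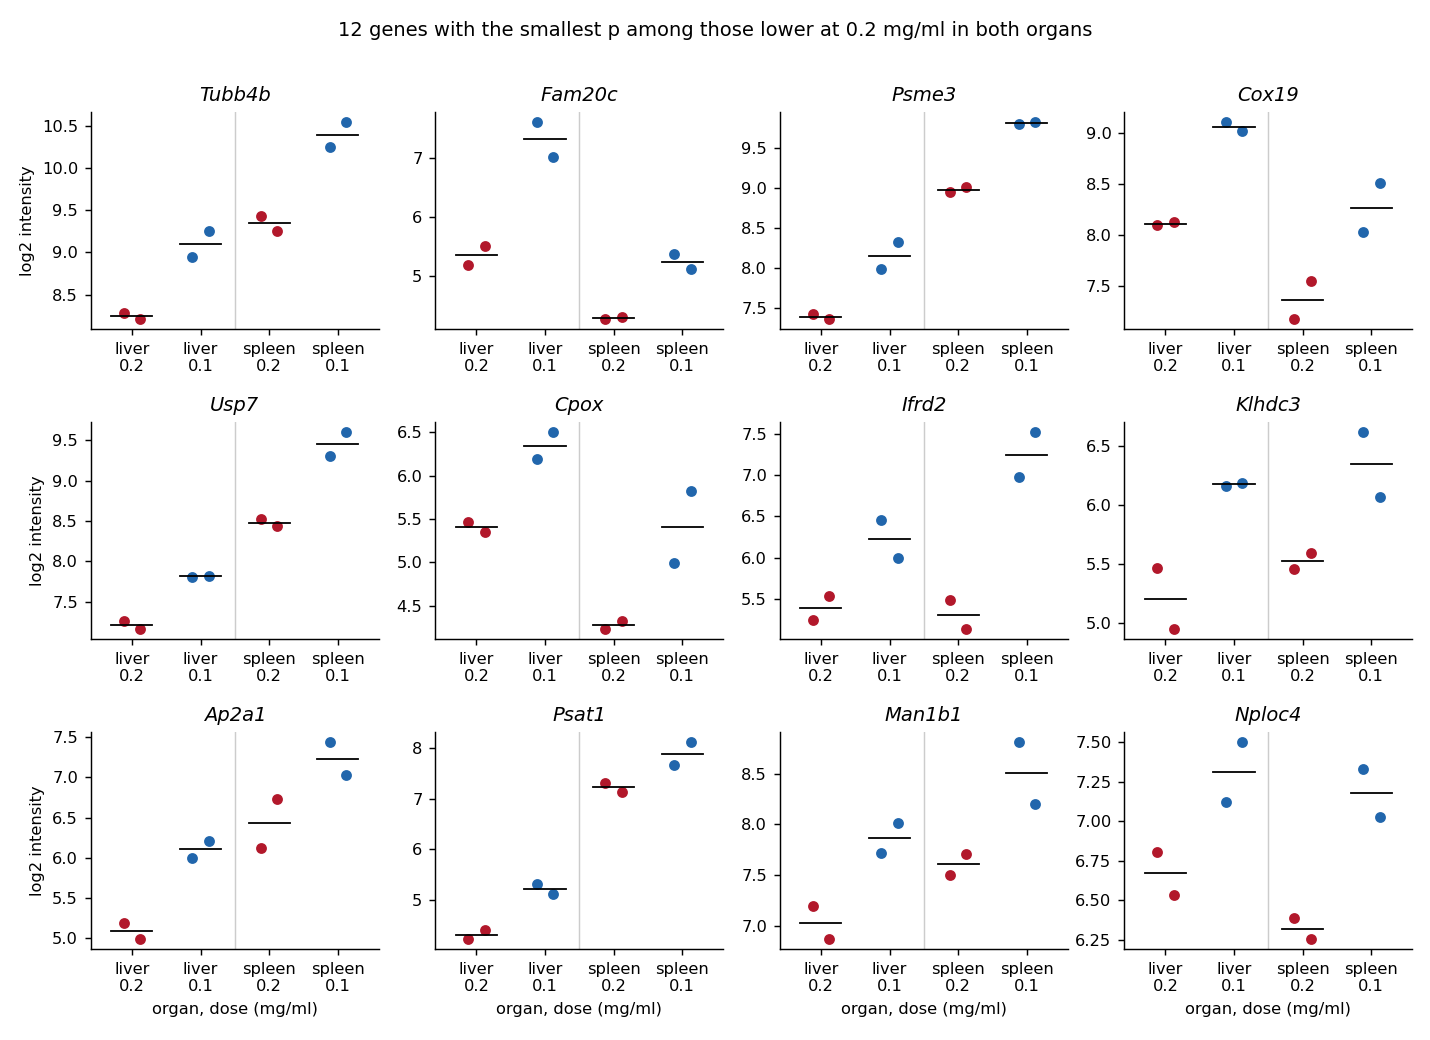
Log2 intensity on each array for the 12 genes with the smallest p among those lower at 0.2 than at 0.1 mg/ml in both organs; points are arrays (2 per organ and dose) and bars are group means, with the axis not starting at 0. Both arrays at 0.2 mg/ml stand below both at 0.1 mg/ml in each organ, by the rule that chose the genes.

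The list of unfolded protein and amino acid stress genes, many of them targets of the transcription factor ATF4, had a median of -0.29 in liver and 0.09 in spleen. Psat1 read 4.23 and 4.42 in liver and 7.31 and 7.13 in spleen at 0.2 mg/ml, against 5.33 and 5.12 in liver and 7.66 and 8.11 in spleen at 0.1 mg/ml (difference -0.78, adjusted p = 0.124). Asns, asparagine synthetase, read 4.29 and 4.48 in livers at 0.2 mg/ml, against 6.28 and 5.58 at 0.1 mg/ml. In spleen Asns read 7.45 and 7.59 at 0.2 mg/ml, against 7.57 and 9.95 at 0.1 mg/ml, so the doses overlapped there and the mean difference of -1.24 rested on replicate 32; without that array the difference over both organs was -0.95, against -1.39 with it. Atf5, a transcription factor of the same response, differed by -1.72 in liver and -0.26 in spleen. Of 21 genes in the list 5 had an unadjusted p under 0.05 with the lower level, against 6.85% of all features (these 3 and, named for this count, Ddit3 and Shmt2) and 1, Xbp1, with the higher, and 0 passed.

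The counts of lower members in the next lists stand against 6.85% of all features with an unadjusted p under 0.05 and the lower level. Of 13 NRF2 targets, which defend against oxidants, 8 read lower in both organs and 0 higher, with a median of -0.30. An unadjusted p under 0.05 was found for 3. They were Srxn1, which repairs oxidised peroxiredoxin, at -0.48, Gclc, the catalytic subunit of glutathione synthesis, at -0.49, and Tkt, transketolase, at -0.44. In spleen the doses overlapped in each of these 3, with differences of -0.36, -0.28 and -0.42, against -0.61, -0.71 and -0.45 in liver. Among 14 hypoxia and glycolysis genes, 6 had an unadjusted p under 0.05 with the lower level and 1, Vegfa, with the higher; the lower ones included Ankrd37 at -0.61 and Aldoa, aldolase, at -0.62. Egln3, a prolyl hydroxylase, was undetected in spleens at 0.2 mg/ml and at least 1.42-fold lower there. It counts among these 6 and passed the detection filter in spleen only through the lower dose. Of 20 respiratory chain genes 4 had an unadjusted p under 0.05, all lower: Uqcrc1 at -0.40, Cox5b at -0.33, Atp5o at -0.28 and, named for this count, Ndufa9 at -0.28. Elovl6, which lengthens fatty acids, differed by -0.86 and was the only 1 of 13 fatty acid synthesis genes under that threshold, a share near that of all features. In ribosome biogenesis 3 of 18 were lower, Nhp2 at -0.57, Nop2 at -0.53 and Rrp9 at -0.40, and 1 higher, Nop14 at 0.40. Vegfa, Xbp1 and Nop14 were named after their values were seen. No member of these lists passed after adjustment.

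The pathways curaxins are known for were examined in the same fit. Of 16 p53 targets 0 had an unadjusted p under 0.05, against 7.37% of all features with the higher level and 6.85% with the lower, and the median was -0.02. Their median was 0.24 in liver, with 12 higher and 4 lower, and -0.07 in spleen, with 5 higher and 11 lower. Cdkn1a, the p53-induced cell cycle inhibitor, read 6.30 and 5.32 in livers at 0.2 mg/ml, against 5.06 and 5.002 at 0.1 mg/ml. In spleen it read 5.51 and 5.46 at 0.2 mg/ml, against 5.87 and 7.02 at 0.1 mg/ml, so the organs had opposite signs (0.78 and -0.96). Among 11 NF-kB targets, 2 had an unadjusted p under 0.05 with the higher level, against the same 7.37%, Ccl5, a chemokine, at 0.80 and Vcam1, an adhesion molecule, at 0.48, while Nfkbia, the inhibitor that NF-kB induces, was at -0.04 (adjusted p = 0.952). Supt16, a FACT subunit, differed by 0.51 in liver and 0.51 in spleen (adjusted p = 0.247), and its other probe had the opposite sign. Over 19 heat shock genes the median was -0.17, and 2 were at an unadjusted p under 0.05 with the lower level, near the 6.85% of all features, Fkbp4 at -0.38 and Hspa8 at -0.32. Of 15 immediate early genes 3 had an unadjusted p under 0.05 with the higher level, against 7.37% of all features, and 0 passed. They were Jun at 0.62, Egr1 at 1.20 (2.19 in liver, 0.22 in spleen) and Dusp6 at 0.49 (0.94 in liver, 0.04 in spleen). In 4 the doses did not overlap in either organ with the higher level at 0.2 mg/ml, against 7.4% of all features, and 8 had opposite signs in the organs. Tox, a nuclear factor of lymphocytes, differed by 1.21 in liver and 0.02 in spleen. Medians over both organs follow, with liver and then spleen in brackets, beside 0.00 over all features. They were 0.01 for sterol synthesis (0.01 and -0.09), 0.04 for histone chaperones (0.06 and -0.01) and -0.05 for clock genes (-0.15 and -0.01). For immediate early genes the median was 0.12 (0.215 and 0.07), for drug metabolism 0.02 (0.01 and 0.03) and for acute phase genes 0.20 (0.28 and 0.004).

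**Figure D5:**
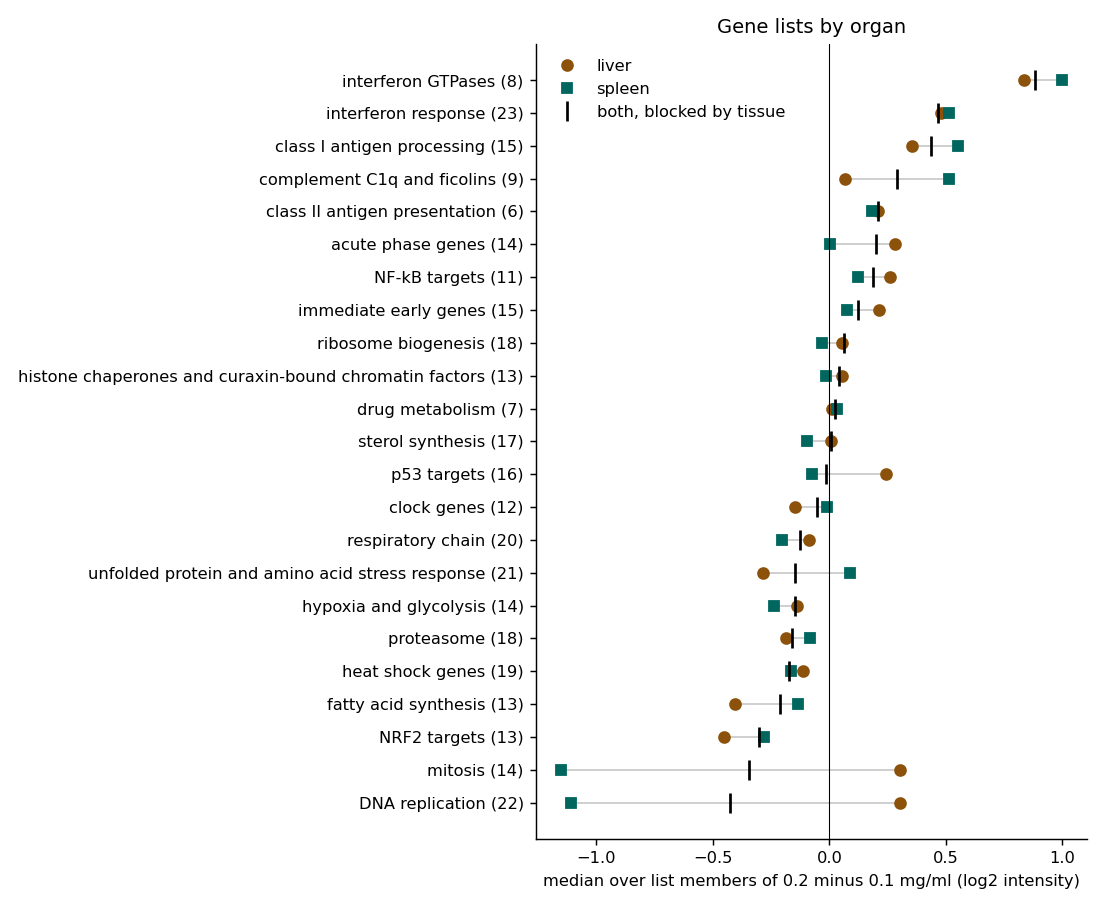
Median difference in log2 intensity, 0.2 minus 0.1 mg/ml, over the tested members of each of 23 lists, in liver (circles), in spleen (squares) and over both organs in the blocked fit (bars); numbers in brackets count members. The GTPases (0.84 and 1.00), interferon response (0.48 and 0.51) and class I genes (0.36 and 0.55) lie on the same side in both organs, and the cell division lists on opposite sides.

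Not all dose differences were shared. DNA replication genes had a median of 0.31 in liver and -1.11 in spleen, with opposite signs in 17 of 22, and mitosis genes 0.30 and -1.15, with opposite signs in 13 of 14. The spleen value leaned on replicate 32 at 0.1 mg/ml. Its list median was 9.15 for replication and 8.99 for mitosis, against 7.34 and 7.20 on replicate 56. The spleens at 0.2 mg/ml stood at 6.96 and 6.99 for replication, below both spleens at 0.1 mg/ml. For mitosis they stood at 7.17 and 7.28, on either side of replicate 56. Without replicate 32 the medians over both organs were -0.03 and 0.08, against -0.43 and -0.34 with it. These medians take liver and spleen together and do not give the spleen difference alone. Neutrophil and erythroid marker sums were also uneven between the spleens at 0.1 mg/ml: they were 3858 to 4216 and 21434 to 22892 in spleens at 0.2 mg/ml, against 3118 to 16269 and 23220 to 42095 at 0.1 mg/ml. The part of these cells in the cell division result was not tested. Without replicate 32 the interferon medians were 0.48 for response genes, 1.01 for GTPases and 0.35 for class I genes.

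By the test of the difference between organs, 2 features passed (0.019%). Csad, an enzyme of taurine synthesis, read 7.35 and 7.83 in livers at 0.2 mg/ml, against 10.90 and 10.58 at 0.1 mg/ml, and 6.42 and 6.53 in spleens at 0.2 mg/ml, against 6.35 and 5.99 at 0.1 mg/ml. It fell by 3.15 in liver (limma adjusted p = 0.00178) and was at 0.31 in spleen (difference between organs 3.46, adjusted p = 0.00825). The other was an unnamed probe, detected on both spleens at 0.2 mg/ml, on 1 of 2 spleens at 0.1 mg/ml and on 1 of 2 livers at each dose, so that it passed the filter in spleen through the higher dose and its other levels lay near background. Its fitted difference was 3.50 in spleen (limma adjusted p = 3.03e-04; 0.0571% of features were called higher there) and -0.02 in liver. Pparg, the fat cell nuclear receptor, differed by -1.41 in liver and 0.73 in spleen, Calr, an endoplasmic reticulum chaperone, by -0.66 and 1.16, Peg3, an imprinted zinc finger gene, by -0.96 in liver and at least 1.28-fold higher in spleen, and Blmh, a peptidase, by 0.98 in liver and -0.60 in spleen. The small heat shock gene Hspb1 was undetected in livers at 0.2 mg/ml, at least 2.56-fold lower, and differed by 0.68 in spleen. These last 5 were chosen for their opposite signs and did not pass. Peg3 passed the detection filter in spleen only through the higher dose, and Hspb1 in liver only through the lower dose.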

How the data were processed

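Total RNA from frozen mouse liver and spleen was amplified, biotin-labelled and hybridised to Illumina bead arrays. Per the file headers, the deposited intensities are average probe signals; they are not scaled between arrays, and the submitters' processing notes name GenomeStudio 1.6.0. Each deposited signal has a detection p-value, per the file headers, and its computation is not stated there. The authors' deposited log2 values equalled quantile-normalized log2 signals (largest gap 5e-09), with column medians of 5.1 to 5.11, and served as an alternative.

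Each organ's arrays were processed with neqc in limma 3.58.1 (R 4.3.3): normexp background correction with detection p-values, offset 16, quantile normalization, log2. Probes were kept where the detection p-value was below 0.05 on 2 or more treated arrays of each organ, and a gene was represented by its brightest probe. The platform annotation named 1 symbol for 34885 probes, more than 1 for 18, and no symbol for 10378.

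The blocked fit (tissue and dose, 8 arrays) had 5 residual degrees of freedom plus 4.96 from moderation, and the fit with 1 mean per organ and dose had 4 plus 5.27. Both used lmFit, eBayes and Benjamini-Hochberg adjustment at 0.05. The blocked fit was tested on simulated data, and the fit with 1 mean per organ and dose was not. Named genes were up to 12 per direction by p without overlap in either organ, 3 per response list by p, 6 of opposite direction, and a few followed genes; exceptions are stated. The members, the 41 lists and the rules were chosen with earlier results of these data known. The alternatives were other scaling, background, filter and moderation settings, joint fits, the spleens numbered 62 averaged, and each array left out. Xist and Y-linked genes were not reported.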

Additional observations from a re-analysis of the deposited data

Results flagged for a closer look

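The dose difference differed between the organs for 2 features, by the interaction test of the fit with 1 mean per organ and dose. For Csad the spleen difference exceeded the liver difference by 3.46 on the log2 scale (limma adjusted p = 0.00825), with -3.15 in liver and 0.31 in spleen. The probe ILMN_2835423, which has no gene symbol here, gave 3.52 (limma adjusted p = 0.006255). It read 7.82 and 7.93 in spleens at 0.2 mg/ml, against 4.21 and 4.53 at 0.1 mg/ml, and 4.198 and 4.41 in livers at 0.2 mg/ml, against 4.52 and 4.13 at 0.1 mg/ml. It was detected on both spleens at 0.2 mg/ml, on 1 of 2 at 0.1 mg/ml and on 1 of 2 livers at each dose, so the sizes rest in part on levels near background.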

How the results depend on the processing

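Counts of called features below are given as blocked fit higher and lower, liver higher and lower, spleen higher and lower, and organ difference higher. They were 1 and 0, 1 and 2, 6 and 1, and 2 as reported. With 75th percentile scaling they were 0 and 0, 1 and 1, 2 and 5, and 0, and the features without overlap were 314 higher and 660 lower, against 778 and 699. Normalizing both organs together gave 4 and 0, 1 and 2, 10 and 1, and 2, and normalizing treated arrays alone 1 and 0, 1 and 1, 6 and 1, and 2. Without background correction they were 3 and 0, 2 and 1, 11 and 1, and 2, with offset 50 2 and 0, 2 and 1, 7 and 0, and 2, and with the authors' values 2 and 0, 2 and 2, 19 and 5, and 2. Without a detection filter they were 0 and 0, 2 and 4, 4 and 0, and 0, with 1346 and 1258 without overlap, and with the strict filter 2 and 0, 1 and 1, 4 and 1, and 1. Testing every probe gave 1 and 0, 2 and 3, 1 and 0, and 3; an intensity trend with robust moderation gave 7 and 4, 1 and 2, 12 and 2, and 2. All 11 arrays in 1 fit gave 6 and 1, 0 and 1, 8 and 0, and 2, and the 4-group fit gave 8 and 3 over both organs. With the spleens numbered 62 averaged they were 0 and 0, 0 and 1, 1 and 0, and 0, and the features without overlap 1057 and 992, from fewer arrays. Leaving out 1 array at a time gave 0 to 20 higher and 0 to 12 lower over both organs, 0 to 202 and 0 to 115 in liver, 1 to 756 and 0 to 690 in spleen, 0 to 496 and 0 to 490 for the organ difference, and 1001 to 1401 and 904 to 1416 without overlap. Signs turned for 4 genes: Cdkn1a was at 0.085 with the spleens averaged and ran from -0.46 to 0.31 over the arrays left out (0.069 without spleen replicate 62 and 0.084 without 62_86). Nfkbia ran from -0.274 to 0.159, with 0.099 without liver replicate 43 and 0.055 without liver 73, Blmh from -0.061 to 0.392 and Calr from -0.065 to 0.503. The causes of these changes were not tested. The interferon response median ran from 0.256 to 0.516. No paired analysis and no block by mouse was possible because neither the dose groups nor the organs share a replicate number. No slide block was run because the file headers name no slide. Probes near background have compressed differences, so low levels such as Oas2 are less certain.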
